A study of Arabidopsis thaliana with 12 samples.

Results

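The transcribed spacers of the 45S ribosomal RNA precursor were examined in a fibrillarin CLIP-seq study of Arabidopsis thaliana, a method that sequences RNA fragments recovered with a protein after ultraviolet crosslinking. The members were the plus-strand peaks that start in the 5′ external transcribed spacer (5′ ETS) or in the first internal transcribed spacer (ITS1) of the rRNA units annotated on chromosomes 2 and 3. The 5′ ETS was taken as the 1800 nt before each 18S gene, at chr2:1906-3705 and chr3:14195877-14197676, and ITS1 as the bases between the 18S and 5.8S genes, at chr2:5514-5781 and chr3:14199485-14199752 (TAIR10.1 coordinates, plus strand). The rule took 359 of the 1037099 peaks in the 12 libraries, 314 in the 5′ ETS and 45 in ITS1, and every library held members. By the same count of starts, the 18S genes held 1589 peaks, the 5.8S genes 354 and the 25S region 3662.

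Whole Col-0 seedlings, 14 days old, had been grown on plates and crosslinked, and 3 genotypes were compared with 4 libraries each: GFP alone, which was the negative control, GFP-FIB1 and CFP-FIB2. FIB1 and FIB2 are the fibrillarin genes AT5G52470 and AT4G25630. The sources used here do not give the promoter of the transgenes, the number of lines or the plants pooled per library. Since no source says that replicates came from separate cultures, p-values measure only the spread between these samples, which may be technical. In whole seedlings, fewer cells of a type and less RNA per cell cannot be told apart.

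RNA polymerase I transcribes the 18S, 5.8S and 25S rRNAs as a single precursor, and the spacers between and around them are cut away and degraded in the nucleolus. Fibrillarin is the 2′-O-methyltransferase of the box C/D small nucleolar ribonucleoproteins, which use guide snoRNAs to place methyl groups on rRNA. The U3 snoRNA belongs to the same class but guides cleavage: it pairs with the 5′ ETS and the 18S sequence, and in Brassica a complex of U3, fibrillarin and nucleolin binds the 5′ ETS next to the primary cleavage site. Cutting in ITS1 separates the 18S precursor from that of 5.8S and 25S.

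The following sequences are the stretches of the spacers in which the largest peaks lay, read from the TAIR10.1 assembly (RefSeq), 5′ to 3′ on the plus strand. Capitals mark the peak with most reads in each of several stretches of the copy shown. The first 2 sequences are adjoining parts of the 5′ ETS on chromosome 3, at chr3:14197427-14197676 and chr3:14197227-14197426, and the third is the whole ITS1 of chromosome 2, at chr2:5514-5781.
5′ ETS, last 250 nt: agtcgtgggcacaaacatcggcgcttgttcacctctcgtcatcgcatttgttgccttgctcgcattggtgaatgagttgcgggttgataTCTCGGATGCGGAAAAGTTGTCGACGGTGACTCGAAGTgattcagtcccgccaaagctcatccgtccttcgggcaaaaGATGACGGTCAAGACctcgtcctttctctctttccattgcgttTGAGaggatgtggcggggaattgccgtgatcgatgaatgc
5′ ETS, 200 nt further upstream: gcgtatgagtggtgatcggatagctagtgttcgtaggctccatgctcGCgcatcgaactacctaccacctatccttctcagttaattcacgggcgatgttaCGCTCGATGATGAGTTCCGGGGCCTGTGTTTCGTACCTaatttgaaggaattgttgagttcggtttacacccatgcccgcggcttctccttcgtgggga
ITS1: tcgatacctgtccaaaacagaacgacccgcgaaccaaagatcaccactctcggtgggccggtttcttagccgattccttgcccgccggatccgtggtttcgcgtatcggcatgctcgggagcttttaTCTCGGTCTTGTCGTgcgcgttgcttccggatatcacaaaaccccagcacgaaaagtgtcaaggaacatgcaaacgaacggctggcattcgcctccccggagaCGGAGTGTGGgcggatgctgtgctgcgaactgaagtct

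Positions in the 5′ ETS are counted back from the first base of 18S, so that -1 is the last base of the spacer, and positions in ITS1 are counted from 1 at its first base. The capitals of the last 250 nt of the 5′ ETS lie at -161 to -124, -83 to -69 and -40 to -37, those further upstream at -403 to -402 and -349 to -312, and those of ITS1 at 128 to 142 and 231 to 240.

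Reads in peaks ranged from 2811379 to 12438185 per library and peaks from 33990 to 135487. Nuclear rRNA took 28.7 to 60.1% of these reads, chloroplast rRNA 2.11 to 10.1% and the mitochondrial genome 1.29 to 11.8%. The shoot transcripts RBCS1A, RCA, LHCB1.3 and LHCB1.1, which mark photosynthetic tissue, had a peak in 12 of 12 libraries. All 4 stood higher in the tagged groups, by a median of 1.23 in GFP-FIB1 and 1.11 in CFP-FIB2 on the log2 scale of the fit across all features described further on, where the medians over all features were 0.05 and 0.14. None of the 4 was called, and their part in the spacer differences was not tested. Correlations of protein-coding transcripts placed the libraries in 3 sets that cross the genotypes. Set A held GFP 1, GFP 2, GFP-FIB1 1 and CFP-FIB2 1, set B held GFP 3, GFP-FIB1 2 and CFP-FIB2 2, and set C held GFP 4, GFP-FIB1 3, GFP-FIB1 4, CFP-FIB2 3 and CFP-FIB2 4. The labels give no batch, and what separates the sets was not tested.

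Of the members, 357 lay wholly inside their spacer and 2 ran past the end of ITS1. The 314 5′ ETS peaks were 1 to 70 nt long with a median of 7 nt, and held 3 to 4941 reads with a median of 24. The 43 ITS1 peaks wholly inside the spacer were 2 to 35 nt long with a median of 11 nt, and held 4 to 8896 reads with a median of 41. Together the 5′ ETS peaks held 41572 reads and the ITS1 peaks wholly inside held 28951. In the authors' lists 302 members carried an intergenic name, 21 the name of the protein-coding gene AT2G01008, 31 that of the long noncoding RNA AT3G06325, 3 that of the noncoding RNA AT3G41761 and 2 that of the long noncoding RNA AT3G06355. These annotated loci overlap the spacers on the plus strand.

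The 2 members that ran past ITS1 lay almost wholly in 5.8S. The first, in GFP 3, covered chr3:14199752-14199774 with 337976 reads, and 22 of its 23 nt lay in the 5.8S gene. The second, in GFP 4, covered chr3:14199752-14199764 with 73741 reads, and 12 of its 13 nt lay in 5.8S. The first of them is printed here because its single ITS1 base, in capitals, is all that made it a member.
Edge peak: Taaaacgactctcggcaacggat
Peaks that began 1 nt further on, at chr3:14199753, were not members, and they held 201141 reads in GFP-FIB1 2, 206937 in CFP-FIB2 2, 108538 in GFP-FIB1 3, 156167 in CFP-FIB2 3 and 71159 in GFP-FIB1 4. In CFP-FIB2 4 the matching peak began at chr3:14199755 and held 97696 reads. The members at the edge and these neighbours differ by 1 to 3 nt in where they start, so ITS1 is given both by the start of the peak and from the 357 peaks wholly inside.

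The 5′ ETS took a small share of the reads, and that share was lowest in GFP 1 and highest in CFP-FIB2 2. Expressed as reads in 5′ ETS peaks per 1000000 reads in all peaks of the library (RPM), the GFP libraries 1 to 4 gave 53.4, 234, 98.5 and 65.7. The GFP-FIB1 libraries gave 222, 1085, 103 and 139. The CFP-FIB2 libraries gave 542, 1508, 201 and 259. GFP 2 lay inside the range of both tagged groups, while the other 3 GFP libraries lay below every tagged library. The group means were 113 ± 82.9 (SD, n = 4) for GFP, 387 ± 468 (SD, n = 4) for GFP-FIB1 and 628 ± 606 (SD, n = 4) for CFP-FIB2. Counting error alone gave a 95% Clopper-Pearson interval of 45.2 to 62.6 RPM for GFP 1 and of 1485 to 1531 RPM for CFP-FIB2 2. Such intervals cover counting error only, since amplified reads without molecular identifiers are not independent molecules. The number of 5′ ETS peaks moved less than the reads: it was 11, 40, 27 and 23 in GFP, 19, 33, 26 and 29 in GFP-FIB1, and 24, 26, 38 and 18 in CFP-FIB2.

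The 5′ ETS share was higher in CFP-FIB2 than in GFP by 2.25 ± 0.80 (SE) on the log2(RPM + 1) scale, a 4.75-fold ratio, with 15 of 16 library pairs in that direction. The exact two-sided permutation test gave p = 0.0571, and 0.343 after Benjamini-Hochberg adjustment over 6 spacer comparisons. The smallest p that 4 against 4 libraries allow is 0.0286. For GFP-FIB1 against GFP the difference was 1.34 ± 0.89 (SE), a 2.54-fold ratio, with 13 of 16 pairs in that direction (exact permutation p = 0.2, adjusted 0.600). Without GFP-FIB1 2 this difference was 0.62. GFP-FIB1 differed from CFP-FIB2 by -0.90 ± 1.00 (SE), with 4 of 16 pairs higher in GFP-FIB1 (exact permutation p = 0.400, adjusted 0.643). The labels give no pairing, but same-numbered libraries of these groups share a library set. GFP-FIB1 was the lower library in 4 of 4 same-numbered pairs (exact permutation p = 0.125 by sign changes, the smallest that 4 pairs allow). None of the 3 differences passed the threshold of 0.05.

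Within the library sets the direction held throughout. The ratio of CFP-FIB2 to GFP was 4.81 in set A, 15.2 in set B and 3.44 in set C, with 1 or 2 libraries per group in each. The ratio of GFP-FIB1 to GFP was 1.98, 10.9 and 1.80, and that of GFP-FIB1 to CFP-FIB2 was 0.411, 0.719 and 0.525. Permuting within sets gave a difference of 2.66 for CFP-FIB2 against GFP with an exact p of 0.0556, which is the smallest that the 18 orders allow. The same permutation gave 1.76 with an exact p of 0.222 for GFP-FIB1 against GFP. For GFP-FIB1 against CFP-FIB2 it gave -0.90 with an exact p of 0.0833, the smallest that 24 orders allow.

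**Figure D1:**
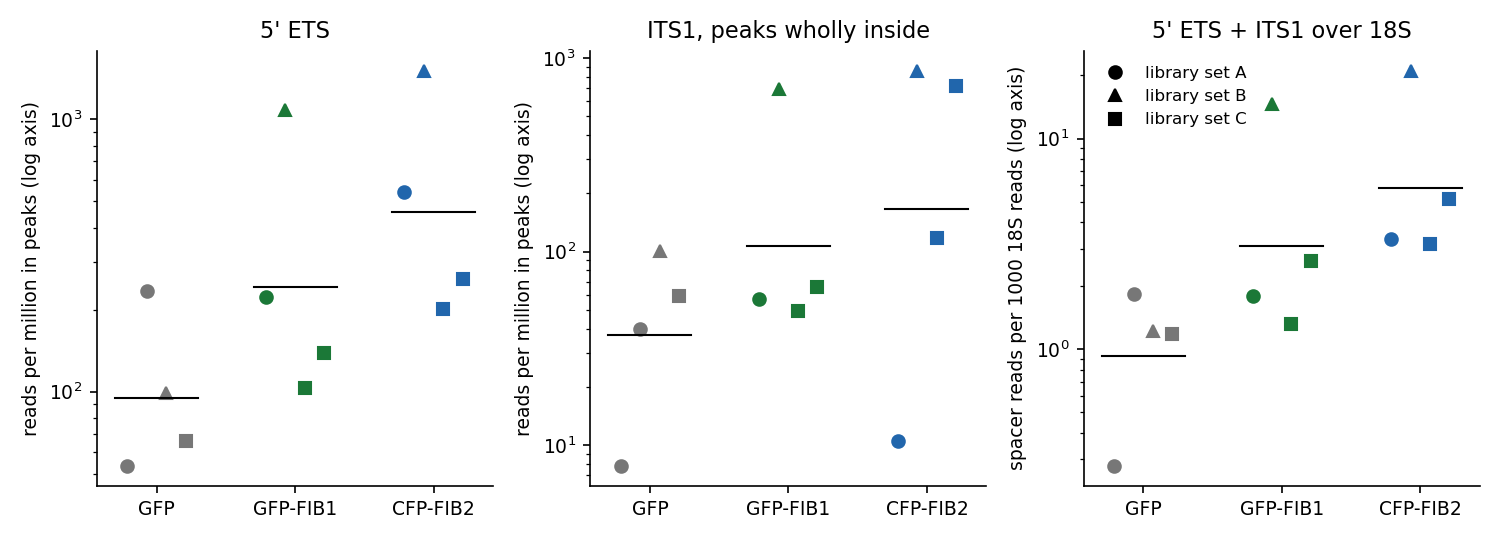
The 3 panels plot, for each library, 5′ ETS reads in RPM, ITS1 reads in RPM from peaks wholly inside the spacer, and spacer reads per 1000 reads in 18S peaks, all on log axes. Points are libraries, their shape gives the library set and the horizontal line is the mean taken on the log scale of the 4 libraries. The triangles of GFP-FIB1 2 and CFP-FIB2 2 are the highest of their groups in every panel, and in the third panel all 4 CFP-FIB2 libraries stand above the GFP libraries.

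A fit across 19836 features with limma, on log2 of the RPM after TMM scaling plus 1, placed the spacers among all genes and rRNA regions. It called 0 features, or 0% of those tested, at an adjusted p under 0.05 in each of the 3 comparisons, spacers included. Without adjustment, 351 features were higher and 230 lower at a limma p under 0.05 for GFP-FIB1 against GFP, with 460 and 97 for CFP-FIB2 against GFP and 80 and 184 for GFP-FIB1 against CFP-FIB2. The 5′ ETS stood at 2.75 ± 1.14 (SE) for CFP-FIB2 against GFP, with a limma adjusted p of 1.00 and an unadjusted p of 0.0269. It stood at 1.29 ± 1.14 for GFP-FIB1 against GFP, with a limma adjusted p of 1.00 and an unadjusted p of 0.272. Over all features the median difference was 0.05 for GFP-FIB1 against GFP and 0.14 for CFP-FIB2 against GFP.

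With the library set as a term, limma called 112 features (0.565%) for GFP-FIB1 against GFP, 94 (0.474%) for CFP-FIB2 against GFP and 1 (0.00504%) for GFP-FIB1 against CFP-FIB2. None of these was a spacer. The 5′ ETS came closest for CFP-FIB2 against GFP, at 2.91 ± 0.68 (SE) with a limma adjusted p of 0.0729 and an unadjusted p of 0.000394. For GFP-FIB1 against GFP it stood at 1.46 ± 0.68 with a limma adjusted p of 0.673. The mature regions of the same precursor moved less in the fit without that term: for CFP-FIB2 against GFP 18S stood at 0.33, 5.8S at 1.22 and the 25S region at 0.15, and for GFP-FIB1 against GFP they stood at -0.49, 0.70 and -0.44. These 5.8S values leave out the edge peaks of GFP 3 and GFP 4, with 337976 and 73741 reads, which count as ITS1 by start. Peaks of tagged libraries that begin at chr3:14199753 count as 5.8S. How much of the 5.8S differences this makes was not tested. In this fit the scaling factor of CFP-FIB2 4 was 0.284, while those of the other libraries ranged from 0.9497 to 1.34, so that its scaled values are high relative to its plain RPM.

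ITS1 differed more between libraries than the 5′ ETS. From peaks wholly inside, the GFP libraries gave 7.83, 40.03, 101 and 58.8 RPM. The GFP-FIB1 libraries gave 56.9, 686, 49.6 and 65.6 RPM, and the CFP-FIB2 libraries 10.6, 860, 117 and 718 RPM. GFP-FIB1 2, CFP-FIB2 2 and CFP-FIB2 4 stood far above the rest, and CFP-FIB2 1 lay below 3 of the 4 GFP libraries. The difference from GFP was 1.48 ± 1.17 (SE) for GFP-FIB1, a 2.79-fold ratio with an exact permutation p of 0.371, and 2.14 ± 1.63 for CFP-FIB2, a 4.42-fold ratio with an exact permutation p of 0.2. Counted by the start of the peak, the edge peaks raised GFP 3 to 29317 RPM and GFP 4 to 10054 RPM, and the same differences became -2.41 ± 3.02 (exact permutation p = 0.429) and -1.75 ± 3.23 (exact permutation p = 0.600). The direction of the ITS1 comparison thus rested on 2 peaks with 1 base each in the spacer. GFP-FIB1 and CFP-FIB2 differed by -0.66 ± 1.70 under both counts (exact permutation p = 0.686).

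Within the library sets, the ITS1 ratio of GFP-FIB1 to GFP from peaks wholly inside was 3.04 in set A, 6.73 in set B and 0.971 in set C, and without GFP-FIB1 2 its difference was 0.59. That of CFP-FIB2 to GFP was 0.609, 8.43 and 4.87. The direction therefore differed between sets, and permutation within sets gave differences of 1.44 and 1.55, each with an exact p of 0.278. By the start of the peak these became -3.75 and -3.64, each with an exact p of 0.167. In limma, ITS1 from peaks wholly inside stood at 1.42 ± 1.502 (SE) for GFP-FIB1 and 2.63 ± 1.502 for CFP-FIB2 against GFP, and neither was called.

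A ratio to the mature 18S region removes the total of reads in peaks from the comparison. Taking peaks wholly inside both spacers, the GFP libraries held 0.279, 1.83, 1.21 and 1.19 spacer reads per 1000 reads in 18S peaks. The GFP-FIB1 libraries held 1.79, 14.6, 1.31 and 2.63, and the CFP-FIB2 libraries 3.32, 21.1, 3.14 and 5.19. The CFP-FIB2 and GFP groups did not overlap, while GFP 2 lay above GFP-FIB1 1 and GFP-FIB1 3. For the 5′ ETS alone CFP-FIB2 and GFP did overlap, with 1.38 per 1000 18S reads in CFP-FIB2 4 and 1.56 in GFP 2. The separation of the summed ratio thus rested on ITS1 in CFP-FIB2 4. There 1 ITS1 peak held 8896 reads, beside 3222 reads in the whole 5′ ETS. The log2 ratio was higher in CFP-FIB2 than in GFP by 2.65 ± 0.87 (SE), or 6.28-fold, in 16 of 16 pairs. Its exact two-sided permutation p of 0.0286 is the smallest the design allows, and it became 0.0857 after Benjamini-Hochberg adjustment over 3 comparisons. For GFP-FIB1 against GFP the difference was 1.74 ± 0.98 (SE), or 3.33-fold, in 14 of 16 pairs (exact permutation p = 0.0857, adjusted 0.129). For comparison, CFP-FIB2 did not overlap GFP and was the higher group in 1.46% of the 19836 features of the limma fit, and the same held for GFP-FIB1 in 0.907%. These shares are of scaled values of single features and not of ratios to 18S. On that scale neither spacer separated a tagged group from GFP.

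The ratio of CFP-FIB2 to GFP was 4.65 in set A, 17.3 in set B and 3.41 in set C, and permutation within sets gave a difference of 2.70 with an exact p of 0.111, where 0.0556 is the smallest possible. For GFP-FIB1 to GFP the ratios were 2.51, 12.05 and 1.57 (difference 1.86, exact permutation p = 0.278), and without GFP-FIB1 2 its difference was 0.99. GFP-FIB1 against CFP-FIB2 stood at -0.91 ± 1.01 (SE, exact permutation p = 0.400), and at -0.85 within sets with an exact p of 0.0833, the smallest that 24 orders allow. GFP-FIB1 was the lower library in 4 of 4 same-numbered pairs. Leaving out CFP-FIB2 2 lowered the difference between CFP-FIB2 and GFP to 2.03 with an exact permutation p of 0.0571, the only replicate whose omission took the unadjusted p past 0.05. Counted by the start of the peak, the edge peaks turned both differences negative, to -0.74 ± 2.34 for CFP-FIB2 (exact permutation p = 0.800) and -1.65 ± 2.38 for GFP-FIB1 (exact permutation p = 0.457).

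Along the 5′ ETS the reads lay close to 18S. The last 500 nt held between 82.7% of the 5′ ETS reads in GFP 2 (95% Clopper-Pearson interval 80.3 to 84.9%) and 99.3% in CFP-FIB2 2 (99.1 to 99.4%). In windows of 100 nt, the mean over the 12 libraries was highest at -200 to -101 with 128 RPM, followed by 67.2 RPM at -300 to -201, 65.0 RPM at -400 to -301 and 57.2 RPM at -500 to -401. This order rested on GFP-FIB1 2 with 577 RPM and CFP-FIB2 2 with 811 RPM at -200 to -101. Over the other 10 libraries that window averaged 15.1 RPM, and the highest were 62.4 RPM at -500 to -401 and 45.2 RPM at -100 to -1. Windows with no peak in any library were -700 to -601 and each of the 4 from -1600 to -1201. A peak list holds only positions that passed the authors' threshold, so a window without a peak may still hold reads. In ITS1 the windows 1 to 100, 101 to 200 and 201 to 268 had mean values of 4.27, 162.7 and 63.9 RPM.

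**Figure D2:**
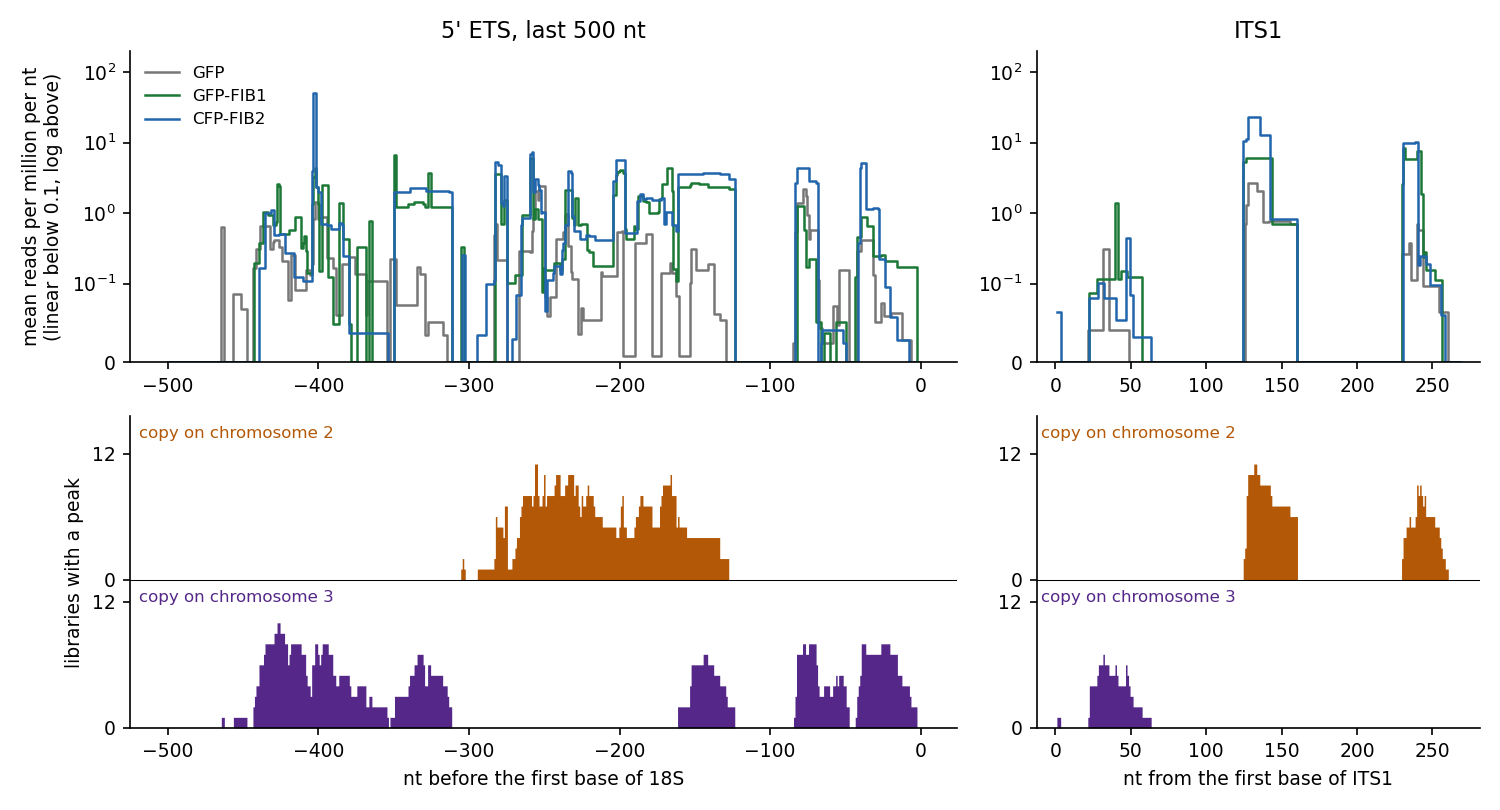
The upper panels plot the mean RPM per nucleotide of the 4 libraries of each group along the last 500 nt of the 5′ ETS and along ITS1, with both copies summed and with an axis that is linear below 0.1 and logarithmic above. The lower panels count the libraries with a peak at each position, separately for the copy on chromosome 2 and that on chromosome 3. The peaks of the copies cover different parts of each spacer.

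The 2 copies of each spacer are nearly the same sequence, yet peaks were listed on different parts of them. Between chromosomes 2 and 3 the 5′ ETS was 98.998% identical, with 18 mismatches and 8 gap positions, and ITS1 98.9% identical, with 3 mismatches, C114A, A173G and T254C (the base on chromosome 2, its position in ITS1, the base on chromosome 3). In the last 500 nt of the 5′ ETS, peaks covered 170 positions on chromosome 2 and 258 on chromosome 3, of which 34 were covered on both. In ITS1, peaks covered 67 positions on chromosome 2 and 45 on chromosome 3, with 0 in common. Reads followed the same split: chromosome 3 held 26783 of the 41572 reads of the 5′ ETS, and chromosome 2 held 28520 of the 28951 reads of ITS1. Only 12.4% of the 25-nt words in the last 500 nt of the 5′ ETS on chromosome 2, 13.0% on chromosome 3 and 26.6% in ITS1 on either copy were unique in the assembly. How reads that match both copies were placed is not stated in these sources, and the true copy of a peak cannot be told apart from that placement.

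Peaks that overlapped across libraries formed 22 clusters in the 5′ ETS and 4 in ITS1. Of these, 6 in the 5′ ETS and 3 in ITS1 had a peak in 6 or more libraries, while 10 in the 5′ ETS and 1 in ITS1 were seen in a single library. The cluster at -283 to -124 held 55.3% of all 5′ ETS reads, that at -443 to -354 held 15.04% and that at -352 to -312 held 13.7%. The cluster at -84 to -48 held 7.95%, that at -43 to -3 held 4.84% and that at -903 to -807 held 2.11%. These shares pool the reads of all libraries, of which GFP-FIB1 2 and CFP-FIB2 2 supplied the most. In the other 10 libraries, with 14326 reads in the 5′ ETS, the cluster at -443 to -354 held 38.7%, that at -84 to -48 held 23.1%, that at -283 to -124 held 20.8% and that at -352 to -312 held 2.05%. In ITS1 the cluster at 125 to 160 held 72.6% of the reads, that at 230 to 260 held 26.0% and that at 22 to 63 held 1.47%. In the same 10 libraries the first of these held 94.5% and the second 3.97%.

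The cluster at -283 to -124, with peaks in all 12 libraries, spans chr3:14197394-14197553 and chr2:3423-3582. Its RPM was 18.5, 99.3, 36.1 and 16.9 in GFP, 60.8, 809, 34.5 and 37.3 in GFP-FIB1, and 49.4, 1097, 42.9 and 40.04 in CFP-FIB2. GFP-FIB1 2 and CFP-FIB2 2, both of set B, stood far above every other library, while the remaining tagged libraries lay within the range of GFP. Both high libraries listed the same peak on chromosome 3, the capitals at -161 to -124 in the last 250 nt, with 3405 reads in GFP-FIB1 2 and 4941 in CFP-FIB2 2. The neighbouring cluster at -352 to -312 was high in the same libraries, with 205 RPM in GFP-FIB1 2 and 307 RPM in CFP-FIB2 2 against 0 to 20.0 RPM in the other 10. Its peak in CFP-FIB2 2, at -349 to -312, is the second run of capitals further upstream and held 3314 reads.

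The cluster at -443 to -354, at chr3:14197234-14197323, was high in other libraries. It gave 17.1, 63.7, 9.08 and 14.8 RPM in GFP, 120, 41.8, 30.3 and 42.3 RPM in GFP-FIB1, and 481, 26.8, 39.7 and 0 RPM in CFP-FIB2. The highest library of each group belonged to set A, and the groups overlapped. Most of the value of CFP-FIB2 1 came from a peak of 2 nt at -403 to -402 with 3106 reads, at chr3:14197274-14197275. GFP-FIB1 4 listed the same 2 nt with 90 reads.

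Near the 18S end the cluster at -84 to -48, at chr3:14197593-14197629, gave 2.85, 22.5, 28.5 and 19.2 RPM in GFP, 0, 0, 11.99 and 24.0 RPM in GFP-FIB1, and 0, 0, 57.2 and 162.6 RPM in CFP-FIB2. All 4 tagged libraries of sets A and B had no peak there, all 4 GFP libraries had one, and the highest were CFP-FIB2 3 and CFP-FIB2 4 of set C. The peak of CFP-FIB2 4, the capitals at -83 to -69, held 2011 reads. The last cluster, at -43 to -3, gave 0, 0, 14.95 and 7.59 RPM in GFP, 0, 15.9, 17.98 and 20.3 RPM in GFP-FIB1, and 0, 66.1, 25.4 and 37.0 RPM in CFP-FIB2. Its peak with most reads, the capitals at -40 to -37, held 691 reads in CFP-FIB2 2. None of the 4 libraries of set A had a peak in it, so both tagged groups overlapped GFP over all libraries. In sets B and C the lowest tagged value, 15.9 RPM, lay close to the 14.95 RPM of GFP 3.

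The cluster at -903 to -807, at chr3:14196774-14196870 and chr2:2803-2899, was small but was seen in all 12 libraries, with 2.47 to 28.9 RPM. On chromosome 3 it begins at the first base of MIR5642a (AT3G06345), a microRNA gene annotated at chr3:14196774-14197147, and overlaps the end of AT3G06325. GFP 2 was the highest library and GFP-FIB1 1 the lowest, and the group means were 10.8 RPM in GFP, 5.46 in GFP-FIB1 and 11.6 in CFP-FIB2.

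In ITS1 the cluster at 125 to 160, at chr2:5638-5673, gave 2.49, 21.001, 96.7 and 54.6 RPM in GFP, 0, 399.9, 43.2 and 52.2 RPM in GFP-FIB1, and 5.68, 457, 105 and 715 RPM in CFP-FIB2. Its lowest tagged values were in set A, and CFP-FIB2 4, CFP-FIB2 2 and GFP-FIB1 2 were highest. The peak of CFP-FIB2 4, the first capitals in ITS1, held 8896 reads, more than any other member wholly inside a spacer. The cluster at 230 to 260, at chr2:5743-5773, gave 5.34, 14.7, 0 and 4.20 RPM in GFP, 46.7, 272, 6.44 and 11.3 RPM in GFP-FIB1, and 4.13, 394, 7.69 and 0 RPM in CFP-FIB2. GFP-FIB1 2 and CFP-FIB2 2 were again highest, and CFP-FIB2 4 had no peak there. The peak of CFP-FIB2 2, the second capitals in ITS1, held 4248 of its reads.

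**Figure D3:**
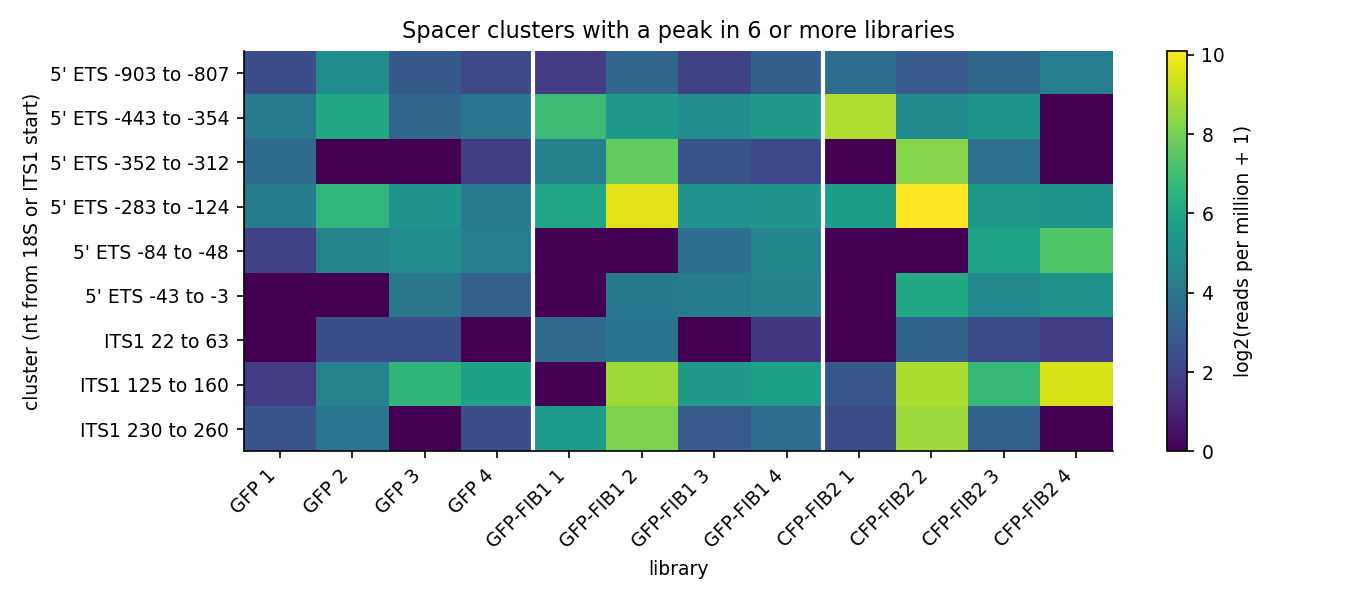
Each row is a cluster of overlapping spacer peaks with a peak in 6 or more libraries, each column is a library, and the colour gives log2(RPM + 1). White lines separate GFP, GFP-FIB1 and CFP-FIB2, and the darkest cells are libraries with no peak. The brightest cells fall in GFP-FIB1 2 and CFP-FIB2 2 at -283 to -124, in CFP-FIB2 1 at -443 to -354 and in CFP-FIB2 4 at ITS1 125 to 160.

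Fitted as features of their own, 0 of these 9 clusters was called by limma in any comparison, with or without the library set as a term, and in none did the groups separate in the scaled values. The differences from GFP ranged from -1.84 ± 1.69 (SE) at -84 to -48 for GFP-FIB1 to 2.83 ± 1.54 at -352 to -312 for GFP-FIB1 in the fit without that term, and the unadjusted limma p was above 0.05 for all 9 in each comparison. With the term, the largest differences from GFP were 3.27 ± 1.13 at ITS1 230 to 260 and -3.03 ± 1.02 at -84 to -48, both for GFP-FIB1, with limma adjusted p of 0.419 and 0.370. For CFP-FIB2 against GFP the cluster at -283 to -124 stood at 2.21 ± 0.73 with a limma adjusted p of 0.477.

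The largest peaks of the 2 spacers started with the same letters. The sequence TCTCGG, chosen after its values were seen, begins the capitals at -161 in the 5′ ETS and at 128 in ITS1. In ITS1 on chromosome 2, 10 peaks from 10 libraries started within 3 nt of it and held 20980 reads. In the 5′ ETS on chromosome 3, 2 peaks with 8346 reads did so. Spacer peaks starting within 3 nt of TCTCGG held 29540 reads in all, or 41.9% of the spacer reads of peaks wholly inside. GFP-FIB1 2, CFP-FIB2 2 and CFP-FIB2 4 supplied 26428 of these reads, and in the other 9 libraries the share was 20.9%, with 0 in GFP 1 and GFP-FIB1 1. The sequence occurred on either strand in 2.35% of the 1191461 genome windows of 100 nt. That is a share of windows and no background for the share of reads. Of its 10 occurrences on the plus strand of the spacers, 4 had such a peak. The first bases of the 314 5′ ETS peaks were 19.7% A, 22.9% C, 30.6% G and 26.8% T, beside 19.6, 22.6, 27.9 and 29.9% of the positions in the last 500 nt. Median GC content was 53.3% in 5′ ETS peaks against 50.5% of that region, and 61.1% in ITS1 peaks against 56.9% of ITS1.

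U3, the snoRNA that pairs with the 5′ ETS, was measured in the same libraries. For U3D (AT5G54075) the TMM-scaled RPM was 5.28, 31.6, 105 and 144 in GFP, 60.7, 1262, 1597 and 1772 in GFP-FIB1, and 84.9, 2053, 505 and 1371 in CFP-FIB2. For U3B (AT5G53902) it was 29.8, 52.9, 141 and 162.7 in GFP, 18.7, 3552, 1308 and 1287 in GFP-FIB1, and 48.9, 5534, 727 and 920 in CFP-FIB2. The tagged libraries of sets B and C lay above all GFP libraries for both genes, while CFP-FIB2 1 lay within the GFP range for both and GFP-FIB1 1 within it for U3D and below it for U3B. U3D was higher by 4.03 ± 1.44 (SE) in GFP-FIB1 and 3.81 ± 1.44 in CFP-FIB2 than in GFP, not called by limma without the library set as a term. With it, the differences were 3.10 ± 0.67 with a limma adjusted p of 0.0327 and 2.89 ± 0.67 with a limma adjusted p of 0.0635, so U3D was called in GFP-FIB1. U3B differed by 2.89 ± 1.62 and 3.06 ± 1.62 and was not called. The U3 genes share most of their sequence, so the split of reads between them is uncertain.

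The highest libraries in U3B, CFP-FIB2 2 and GFP-FIB1 2, were also the highest in the plain RPM of the 5′ ETS, with 1508 and 1085 RPM. In U3D CFP-FIB2 2 was the highest too, but GFP-FIB1 2, with 1262 scaled RPM, lay below GFP-FIB1 4, GFP-FIB1 3 and CFP-FIB2 4. Below CFP-FIB2 2 and GFP-FIB1 2 the orders of U3B and of the 5′ ETS differed. In the 4 tagged libraries of set C, where scaled U3 levels were 505 RPM or more, the 5′ ETS ranged from 103 to 259 plain RPM. CFP-FIB2 1, with U3 within the GFP range, had 542 plain RPM in the 5′ ETS. The U3 values are TMM-scaled and these 5′ ETS values are not. With its scaling factor of 0.284, CFP-FIB2 4, which had the 259 RPM, would stand higher in the 5′ ETS after scaling. Its place in the order therefore depends on the scale.

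**Figure D4:**
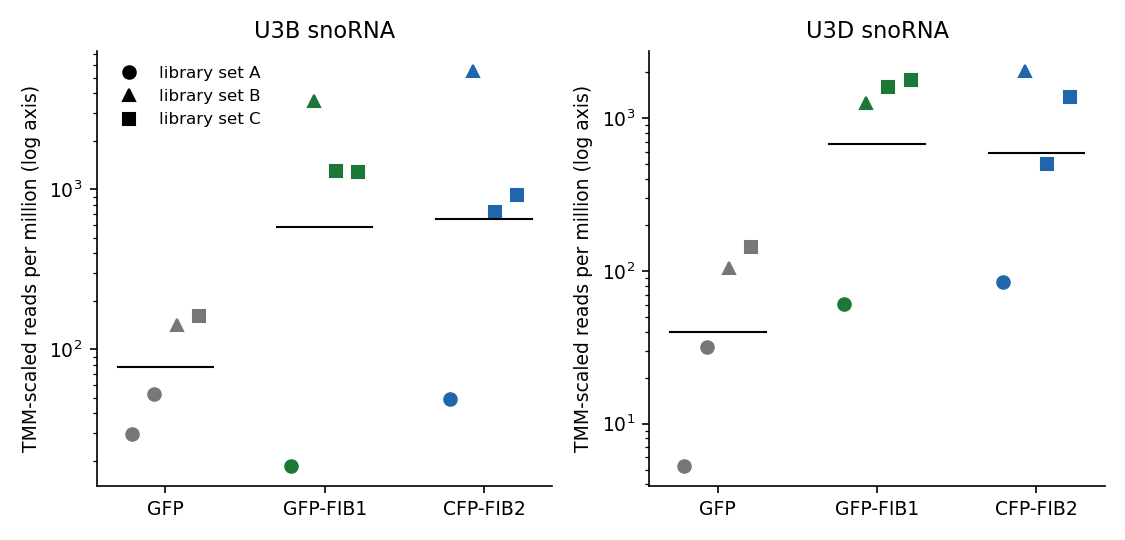
TMM-scaled RPM of the U3B and U3D snoRNAs are plotted for each library on log axes, with point shape for the library set and a horizontal line for the mean on the log scale. The circles of GFP-FIB1 1 and CFP-FIB2 1 stand no higher than the highest GFP library, and the other 6 tagged libraries stand above them.

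Of 13 genes for pre-rRNA processing factors, 12 had enough reads to be tested and 0 was called in any comparison. The list took in the exoribonucleases XRN2 and XRN3, the exosome and its helpers RRP4, RRP41, RRP44A, RRP6L1, RRP6L2 and MTR4, the nucleolins NUC-L1 and NUC-L2, both fibrillarins and the endonuclease RTL2, which was not tested. Their median difference was 0.19 for GFP-FIB1 and 0.27 for CFP-FIB2 against GFP, beside 0.05 and 0.14 over all features. FIB1 was the furthest from GFP, at 3.06 ± 1.18 (SE) in GFP-FIB1 and 3.26 ± 1.18 in CFP-FIB2, and was not called. Its reads can come from the gene and from a transgene. Peaks were summed by gene name without telling exons from introns, so these reads need not be mRNA. The part from any snoRNA within an intron of either fibrillarin gene was not tested. The scaled RPM of FIB1 was 26.4, 38.8, 6.03 and 23.5 in GFP, 18.1, 235, 329 and 610 in GFP-FIB1, and 81.9, 277, 208 and 326 in CFP-FIB2. GFP-FIB1 1 lay within the GFP range, and the groups of GFP and CFP-FIB2 did not overlap. FIB2 stood at 1.29 ± 1.24 and 1.36 ± 1.24 and was not called. Its scaled RPM was 1.55, 9.30, 8.37 and 5.71 in GFP, 0, 17.5, 45.6 and 67.5 in GFP-FIB1, and 0.824, 18.8, 35.6 and 52.9 in CFP-FIB2. The libraries labelled GFP-FIB1 1 and CFP-FIB2 1 lay below every GFP library, and the other tagged libraries lay above. Reads on these genes are not a check of which protein a library carried. Without CFP-FIB2 1 the 5′ ETS difference of CFP-FIB2 from GFP was 2.16 (exact permutation p = 0.0857), and without GFP-FIB1 1 that of GFP-FIB1 was 1.38 (exact permutation p = 0.257).

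On the opposite strand of the same windows, 40 peaks held 730 reads in all 12 libraries together. The value was 4.47 to 23.5 RPM in GFP, 6.14 to 44.2 RPM in GFP-FIB1 and 2.19 to 9.46 RPM in CFP-FIB2, below the plus strand in every library. The 1800 nt upstream of the 5′ ETS on the plus strand were not below it in every library. They held 223 RPM in GFP 1 and 572 RPM in GFP-FIB1 1, against 53.4 and 222 RPM in the 5′ ETS. In every other library they held less than the 5′ ETS.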

How the data were processed

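The deposited files were 1 peak list per library, with position, strand, a peak name and a p-value that the authors gave each peak, all under 0.05. DESeq2 is named, without a version, per the submitters' processing notes; no source used here gives the aligner, peak caller or genome build. The whole number that ends each peak name was read as its reads: it was 3 or more and fell with the authors' p-value (Spearman's rho -0.995 to -0.973 within libraries). This reading is not stated by a source. File starts were read as 0-based, since 574 gene peaks started 1 below a gene's first base and 0 started 2 below. Coordinates were matched to TAIR10.1, where 99.9% of 624188 peaks named for nuclear genes lay inside that gene. Where peaks of a library overlapped on the same strand, the one with most reads was kept (4107 removed, 0 of them members).

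RPM are reads in peaks per 1000000 reads in all peaks of a library, so they depend on what the peak caller kept. Scaled RPM, from the limma fit, used the reads in the fitted features as total instead. Peaks with an intergenic name outside the rRNA regions were left out of that fit. Single values were compared by exact two-sided permutation over libraries on log2(RPM + 1), or on the log2 ratio to 18S. All features with 10 reads at median depth in 4 libraries and 15 in all were fitted with limma 3.58.1 (trend) on values scaled by the trimmed mean of M values (TMM, written in R 4.3.3), over all 12 libraries, with Benjamini-Hochberg adjustment over 19836 features; the code was tested on simulated data. Other steps used Python 3.11.15, pandas 2.3.3 and scipy 1.17.1. Library sets came from complete linkage of correlations over 1274 protein-coding genes with 10 reads in every library (r 0.496 to 0.909 within and 0.124 to 0.686 between sets); other filters or linkages set GFP-FIB1 1 apart. Replicate numbers were taken to pair GFP-FIB1 with CFP-FIB2, since deviations from the group means of same-numbered libraries correlated at 0.401 to 0.573 in 4 of 4 pairs. No label gives this pairing, and libraries with different numbers were not correlated in this way. Same-numbered tagged libraries also share a library set, and numbers 3 and 4 both fall in set C. The numbers were not taken to pair either group with GFP, since the correlations of number 2 with GFP were -0.0296 and -0.337. Named were the 4 highest and the lowest windows of 100 nt, every ITS1 window, the largest peak of each spacer in each library and clusters seen in 6 or more libraries. Members, lists and tests were chosen with earlier results of these data known, and the count of peaks wholly inside, the 1-based reading, the clusters as features, TCTCGG and the values without the libraries that stood highest were added after seeing these values. Alternatives covered the pseudocount, filters, scaling, copies, edges, replicates left out, the replicate number as a block and the library sets.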

Additional observations from a re-analysis of the deposited data

Results flagged for a closer look

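Some libraries stood apart from the other 3 of their group, by a gap to the nearest library that exceeded Dixon's 95% critical share of the group's whole range. For normally distributed values chance gives such a gap in about 1 of 20 groups. The values used here were RPM and ratios without log, which are skewed, so that rate does not apply to them. Such a gap was seen in 18 of the 48 group sets examined, which share libraries and reads. GFP-FIB1 2 stood apart in 5′ ETS reads at 1085 RPM, and in ITS1 reads at 686 RPM both by start and from peaks wholly inside. It also stood apart in spacer reads per 1000 18S reads at 14.6, and so did CFP-FIB2 2 at 21.1. The same libraries stood apart at -283 to -124 (809 and 1097 RPM), at -352 to -312 (205 and 307 RPM) and at ITS1 230 to 260 (272 and 394 RPM), and GFP-FIB1 2 also at ITS1 125 to 160 with 399.9 RPM. Both belong to set B, whose GFP library did not stand apart.

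At -443 to -354 a library of set A stood apart in each group: GFP 2 with 63.7 RPM, GFP-FIB1 1 with 120 RPM and CFP-FIB2 1 with 481 RPM. GFP 2 stood apart at -903 to -807 with 28.9 RPM, and CFP-FIB2 2 in U3B with 5534 scaled RPM. On the strand opposite to the spacers, which the comparisons do not use, GFP-FIB1 1 held 44.2 RPM from 4 peaks, apart from its group and above the highest GFP library at 23.5 RPM. What set these libraries apart was not tested.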

How the results depend on the processing

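Values are log2 differences. The 5′ ETS differences from GFP stayed positive under every alternative run (pseudocount, scaling, filter, copy, edges, coordinates, library sets and replicates left out). By share, CFP-FIB2 against GFP ranged from 1.60 to 2.78, and passed the threshold on the chromosome 3 copy alone (2.43, exact permutation p = 0.0286). GFP-FIB1 against GFP ranged from 1.05 to 2.42 on the log2 scale under settings other than replicates left out, and from 0.62 to 1.77 with a replicate left out. GFP-FIB1 against CFP-FIB2 became 0.17 with file starts read as 1-based, the reading that also gave the 2.42 against GFP. It moves into the 5′ ETS a peak of GFP-FIB1 4 with 14656 reads that starts at the first base of 18S. That library otherwise held 773 reads in the 5′ ETS.

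ITS1 by start turned positive against GFP without the edge peaks. For GFP-FIB1 and CFP-FIB2 it became 1.45 and 2.16 on chromosome 2 alone, and 1.48 and 2.14 from peaks wholly inside. In limma, peaks wholly inside gave 1.42 and 2.63. With 1-based starts, ITS1 by start became 2.80 and 1.19. That reading keeps the edge peaks and adds to ITS1 the peaks of tagged libraries at chr3:14199753, which lie in 5.8S. Leaving out libraries took CFP-FIB2 against GFP from -3.75 to 0.15 by share and from -3.34 to 0.67 in limma, which turned positive without GFP 3, GFP 4 (0.13) or CFP-FIB2 1 (0.09). GFP-FIB1 against CFP-FIB2 ranged from -1.96 to 0.11 by both counts, positive without CFP-FIB2 2 or CFP-FIB2 4 (0.03), and was 0.21 on chromosome 3 alone by both counts and 1.61 with 1-based starts. From peaks wholly inside, CFP-FIB2 against GFP ranged from 1.37 to 3.44, the latter without CFP-FIB2 1 (exact permutation p = 0.0286).

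Spacer reads per 18S read from peaks wholly inside stayed between 2.03 and 2.98 for CFP-FIB2 against GFP when a library was left out, with an unadjusted exact permutation p over 0.05 without CFP-FIB2 2. Within library sets it was 2.70 (exact permutation p = 0.111), where no p under 0.0556 was possible. For GFP-FIB1 against GFP, leaving out a library gave 0.99 to 2.15 for this ratio and 0.59 to 1.95 for ITS1 from peaks wholly inside. By start, the ratio of CFP-FIB2 against GFP ranged from -2.44 to 0.67, positive without GFP 3 or GFP 4 (0.37).

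Replicate numbers did not pair the tagged groups with GFP throughout. GFP 2 correlated at -0.0296 with GFP-FIB1 2 and at -0.337 with CFP-FIB2 2. For numbers 1, 3 and 4 the correlations with GFP ran from 0.168 to 0.689. Of all 12 same-numbered pairs, those between the tagged groups included, 10 correlated over 0.1. Between the tagged groups the same-numbered libraries correlated at 0.401 to 0.573, although no label pairs them, and no call there changed under the block. With the replicate block the ratio stayed 2.65 with an exact permutation p of 0.125, the smallest that 4 pairs allow, and limma called 116 features for GFP-FIB1 and 111 for CFP-FIB2 against GFP, none a spacer. With the library set as a term it called 112, 94 and, between the tagged groups, 1. Leaving out libraries gave 0 to 4 calls for GFP-FIB1 against GFP, 1 without GFP 4 and 4 without GFP-FIB1 1. Where not stated, the cause of a change was not tested. Depth limits GFP 1 most, with 150 reads in the 5′ ETS and 22 in ITS1.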
